A study of Mus musculus with 5 samples.

Results

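The 5 keratin genes Krt6a, Krt6b, Krt16, Krt17 and Krt75, which mark the outer root sheath of the hair follicle and, for most of them, stressed epidermis, were followed in mouse back skin keratinocytes. They were chosen by gene symbol and are 5 of 56691 gene IDs in the count table, 5 of the 18583 genes that had enough counts to be tested, and 5 of 51 tested keratin genes. All 5 passed the filter on low counts. RNA was sequenced from cells of mice aged 28 days. The 3 GFP libraries came from cells sorted on GFP, which the labels describe as keratinocytes positive for Lrig1 (genotype "Lrig1 positive", cell type epidermal stem cells). The 2 bulk libraries came from the unsorted population (genotype WT, cell type epidermal basal cells). The labels used here give no strain, sex, reporter allele behind GFP or sorting gate, and do not say whether libraries of a group came from separate animals. The p-values below then measure only the spread between these libraries, which may be technical in part.

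Keratins are the intermediate filament proteins of epithelia, and each filament is built from pairs of an acidic type I and a basic type II chain. Krt16 and Krt17 are type I genes and Krt6a, Krt6b and Krt75 are type II genes, so the products of the first group can pair with those of the second. The proteins encoded by Krt6a, Krt16 and Krt17 are present in the outer root sheath of resting skin and are induced in the epidermis between follicles by wounding, barrier damage and inflammation. Krt75 marks the companion layer, a single sheet of cells between the outer and the inner root sheath, and is also made in the hair medulla. Basal keratinocytes use the pair encoded by Krt5 and Krt14.

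Total counts ran from 56829330 to 105887450 per library. Krt5 and Krt14 were abundant in all 5 libraries, but suprabasal genes were abundant too in the population labelled basal: 8 suprabasal markers summed to 19817 and 15759 CPM in bulk 1 and 2. CPM is the count divided by the library total after TMM scaling, an adjustment for differences in RNA composition. Lrig1 was at 163 and 155 CPM in bulk 1 and 2 and at 210, 226 and 213 CPM in GFP 1, 2 and 3. Its log2 change was 0.44 and it was not called in the fit on group alone (edgeR adjusted p = 0.292). With libraries matched by title number, the replicate block described below, the change was 0.45 and called higher (edgeR adjusted p = 0.00676). That fit called 16.4 percent of all tested genes higher. GFP 3 stood apart by 53714 counts of Xist, the transcript of the inactive X chromosome, against 0 to 8 in each other library. Its cells thus came, at least in part, from another animal than those of GFP 1 and 2. For the pairs GFP 1 and 2, and bulk 1 and 2, separate animals are not shown. Sex was therefore not balanced between the groups, and its part in the differences below was not tested. Summed markers of melanocytes (278 and 113 CPM), Langerhans and other myeloid cells (288 and 293 CPM) and T cells (130 and 107 CPM) in bulk were at most 9.75, 45.0 and 13.4 CPM in a sorted library. The fibroblast sum did not follow this: 6 genes summed to 196 and 153 CPM in bulk 1 and 2 and to 168, 36.1 and 9.56 CPM in GFP 1, 2 and 3. The sum in GFP 1 was thus like that of bulk, but most of it was Col1a1, Col1a2 and Col3a1 (72.4, 51.4 and 37.9 CPM). Of the 6 genes 2 were called lower, Dcn and Pdgfra (edgeR adjusted p = 0.0123 and 0.0437). Dcn was at 17.5 and 13.7 CPM in bulk 1 and 2 and at 5.90 CPM in GFP 1. Sebocyte markers summed to 78.1 and 56.8 CPM in bulk and to 56.0, 34.6 and 19.7 CPM in sorted cells, and endothelial markers to at most 3.49 CPM in any library. Mgst1 held most of the sebocyte sum in GFP 1, at 47.9 CPM, while Soat1 and Scd3 were called lower (edgeR adjusted p = 4.62e-04 and 0.0171). In bulk RNA, fewer cells of a type and less RNA per cell cannot be told apart, which holds for every difference below.

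The coding sequences show which of these genes short reads can tell apart. Sequences were read from the GENCODE M21 transcripts (build GRCm38, an earlier build than the one the submitters used). Krt6a and Krt6b, neighbours on the minus strand of chromosome 15, were identical at 97.8% of 1659 aligned coding bases, with 37 differences and a longest identical run of 280 bases. The stretch of 60 coding bases that separates them best is shown here, with the bases that differ in capitals, because reads can be assigned to one copy or the other only over such bases (coding bases 817 to 876 of each gene, counted from the start codon, 10 differences).
Krt6a: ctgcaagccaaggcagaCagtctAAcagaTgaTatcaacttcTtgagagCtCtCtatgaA
Krt6b: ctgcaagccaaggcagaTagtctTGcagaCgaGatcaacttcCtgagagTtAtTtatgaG

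Other stretches are identical in both copies. Coding bases 1357 to 1416 are an example, in which both genes carry the same 60 bases.
Krt6a and Krt6b: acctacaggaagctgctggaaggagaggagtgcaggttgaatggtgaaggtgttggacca

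Of all windows of 100 bases in the Krt6a and Krt6b transcripts, 47.5% and 30.6% also occurred, on either strand, in a transcript of another gene. For Krt6a these genes include Gm49428, an antisense gene over Krt6a. A part of its share can thus be the same locus on the other strand and not another copy, and that part was not counted. For Krt16 the share of such windows was 24.3%, through the pseudogene Gm11597 and through Krt14. Krt14, the abundant basal type I gene, was identical to Krt16 at 86.4% of 1402 aligned coding bases with a longest identical run of 134 bases, and 46 of its 1599 windows also occurred in Krt16. How reads from these stretches were counted was not tested. It was 0.947% for Krt75 and 0 of 1452 windows for Krt17. Krt16 and Krt17, neighbours on the minus strand of chromosome 11, were identical at 77.6% of aligned coding bases. Their most different stretch of 60 bases holds 25 differences, again in capitals (coding bases 949 to 1008 of Krt16 and 862 to 921 of Krt17), and shows how much easier this pair is to tell apart.
Krt16: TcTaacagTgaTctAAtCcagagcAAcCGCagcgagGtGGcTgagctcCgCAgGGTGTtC
Krt17: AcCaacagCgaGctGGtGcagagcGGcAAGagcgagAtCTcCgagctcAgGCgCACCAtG

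The sorted cells carried more Krt16 RNA and less Krt75 RNA than the bulk population, while Krt17, Krt6a and Krt6b did not pass the test. Of 5 members, edgeR called 1 higher and 1 lower (Benjamini-Hochberg adjusted p under 0.05), against 0.145 percent of all tested genes called higher and 5.14 percent called lower (5.28 percent in either direction). The CPM values of the groups did not overlap for Krt16 and Krt75, 2 of the 5. Among all tested genes 33.0 percent had groups that did not overlap. Bulk 1 carries the title number of GFP 1, and bulk 2 that of GFP 2. With this number as a replicate block, Krt6a and Krt17 were called higher too, 3 of 5 members higher and 1 lower. In that fit 16.4 percent of all tested genes were called higher and 19.7 percent lower (36.0 percent in all), so a call there is far more common.

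**Figure D1:**
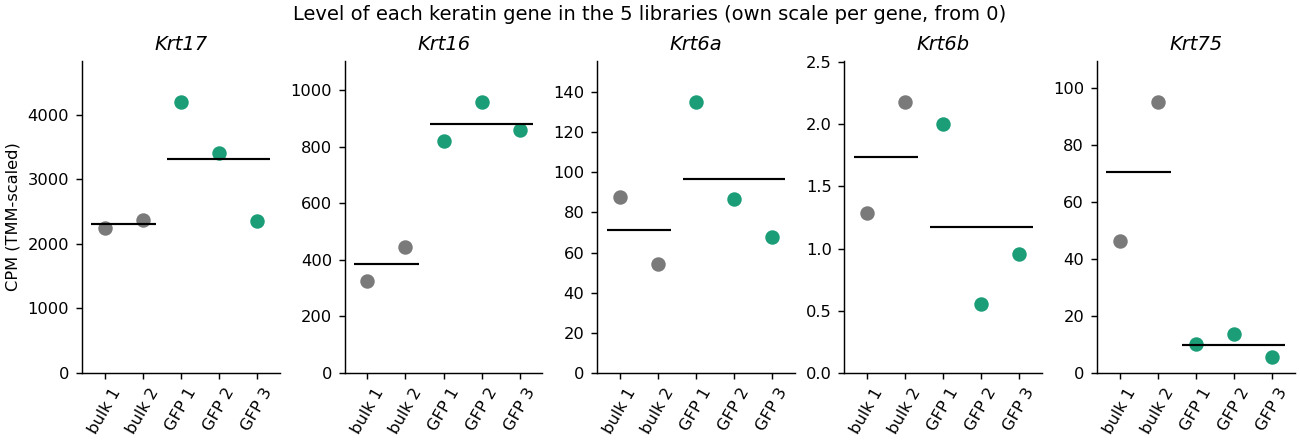
CPM of each gene (vertical axis, TMM-scaled, from 0, own scale per gene) in bulk libraries 1 and 2 (grey) and GFP libraries 1, 2 and 3 (green), with black lines at the group means. For Krt16 all GFP points lie above both bulk points, for Krt75 all lie below, and for Krt17, Krt6a and Krt6b the groups overlap.

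Among the type I genes, Krt16 encodes the keratin that partners Krt6 proteins in stressed epidermis. It was at 325 and 445 CPM in bulk 1 and 2 and at 819, 959 and 859 CPM in GFP 1, 2 and 3. The lowest sorted library was well above the highest bulk library. The group means were 385 ± 84.9 CPM (SD, n = 2) and 879 ± 72.5 CPM (SD, n = 3). The fitted ratio was 2.28-fold, a log2 change of 1.19 ± 0.25 (SE) with a 95% interval from 0.62 to 1.76 (edgeR adjusted p = 0.0322). Krt16 had the highest log2 change of the 51 tested keratin genes. The summed level of 6 basal markers was also higher, at 17576 and 20178 CPM in bulk 1 and 2 and 34995, 29747 and 28009 CPM in GFP 1, 2 and 3. Most of that sum was Krt5 and Krt14, and edgeR called 0 of the 6 genes without a block. With the block it called 4 higher, where 16.4 percent of all tested genes were called higher. The 8 suprabasal markers were at 7857, 11268 and 8190 CPM in the sorted libraries. The part of these cell types in the Krt16 result was not tested. The Krt16 call was lost without bulk 1, bulk 2, GFP 1 or GFP 2 and kept without GFP 3 (edgeR adjusted p = 0.0633 and 0.100 without GFP 1 and GFP 2, 0.0292 without GFP 3). The log2 changes were between 0.98 and 1.42.

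Krt17 encodes a type I keratin of the outer root sheath that also acts in growth control of stressed keratinocytes. Per length it was the most abundant of the 5 genes in every library. Its level was 2251 and 2367 CPM in bulk 1 and 2 and 4198, 3397 and 2350.1 CPM in GFP 1, 2 and 3. GFP 3 sat between the bulk libraries, and GFP 1 and 2 above them. The fibroblast sum fell in the same order over the sorted libraries, from GFP 1 to GFP 3, and its part in the levels of Krt17 and Krt6a was not tested. The log2 change was 0.52 ± 0.32 with a 95% interval from -0.22 to 1.26 (edgeR adjusted p = 0.504). With the replicate block, to which GFP 3 adds nothing because its title number has no bulk library, the change was 0.71 ± 0.18 (edgeR adjusted p = 3.64e-04). Within the shared title numbers, the log2 ratio of sorted to bulk cells was 0.90 for GFP 1 over bulk 1 and 0.52 for GFP 2 over bulk 2. Without GFP 3 and with no block the change was 0.71 and not called (edgeR adjusted p = 0.124).

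Among the type II genes, Krt6a encodes a Krt6 protein that the outer root sheath makes in resting skin. It was at 87.9 and 54.3 CPM in bulk 1 and 2 and at 135, 86.6 and 67.9 CPM in GFP 1, 2 and 3. GFP 1 was the highest library and bulk 2 the lowest, and the other 3 libraries mixed. The log2 change was 0.44 ± 0.33 with a 95% interval from -0.32 to 1.21 (edgeR adjusted p = 0.581). Libraries of the same title number moved alike, with log2 ratios of sorted to bulk cells of 0.62 and 0.67. With the replicate block the change was 0.65 ± 0.14 (edgeR adjusted p = 4.32e-05).

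Krt6b, the near-identical copy, was per length the lowest of the 5. It had 77 and 243 counts in bulk 1 and 2 and 158, 37 and 89 counts in GFP 1, 2 and 3, or 0.558 to 2.18 CPM. The highest and the lowest library were bulk 2 and GFP 2, which share a title number, and the groups overlapped. The log2 change was -0.57 ± 0.55 with a 95% interval from -1.83 to 0.69 (edgeR adjusted p = 0.672). The block left it uncalled (0.0958). Its counts were 0.645% to 4.02% of those of Krt6a. Given the shared sequence printed above, a part of the Krt6b counts could come from Krt6a molecules or the reverse, which was not tested. With Krt6a and Krt6b summed into a single gene, the log2 change was 0.42 and not called (edgeR adjusted p = 0.594).

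Another gene of this stretch, Gm5478, lies next to Krt6b and codes for a protein in M21. It was identical to Krt6a at 89.4% of 1512 aligned coding bases. It had 1767 and 2690 counts in bulk 1 and 2, 4151 counts in GFP 1, 13 counts in GFP 2 and 2956 counts in GFP 3. Relative to Krt6a its counts were 33.6% and 44.5% in bulk 1 and 2 and 38.9%, 0.226% and 46.7% in GFP 1, 2 and 3. GFP 2 therefore nearly lacked it, although Krt6a was at a usual level there and bulk 2, of the same title number, had it. Krt6b was also lowest in GFP 2. Summing Krt6a, Krt6b and Gm5478, an alternative chosen after seeing the data, gave a log2 change of 0.34 (edgeR adjusted p = 0.703).

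**Figure D2:**
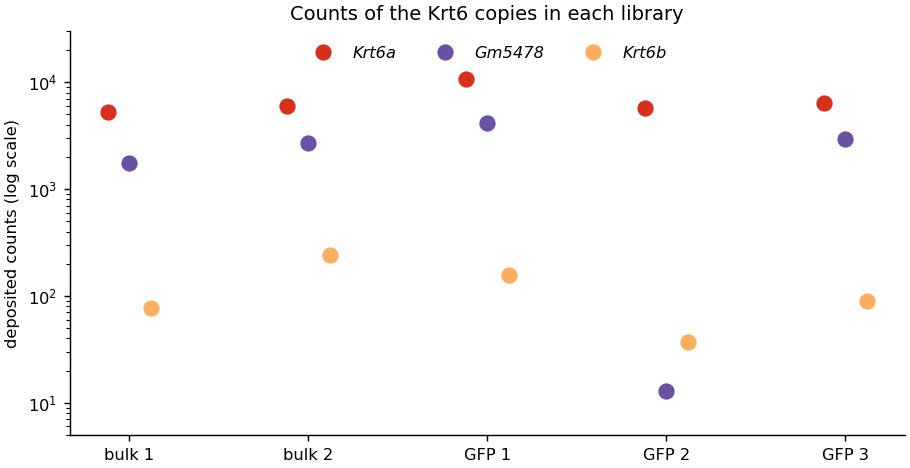
Deposited counts (vertical axis, log scale) of Krt6a, Gm5478 and Krt6b in each library. Krt6a stays between 5259 and 10673 counts, Krt6b between 37 and 243, and Gm5478 is at 1767 to 4151 counts except in GFP 2, where it has 13.

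Krt75 differed most between the groups. It was at 46.1 and 95.1 CPM in bulk 1 and 2 and at 10.1, 13.8 and 5.46 CPM in GFP 1, 2 and 3. The sorted libraries were all far below both bulk libraries, and the bulk libraries differed from each other by 2.06-fold. The fitted level in sorted cells was 0.138 times that in bulk, a log2 change of -2.86 ± 0.42 with a 95% interval from -3.83 to -1.88 (edgeR adjusted p = 0.00678). Krt75 was called lower in all 14 alternatives run on it, with log2 changes from -3.28 to -2.25 and adjusted p-values up to 0.0405. Genes of hair matrix and inner root sheath moved the same way: 9 of 10 listed markers were matched, and their summed level was 1426 and 2813 CPM in bulk 1 and 2 and 56.9, 55.1 and 49.8 CPM in GFP 1, 2 and 3. None of these 9 markers was at 0 in all sorted libraries. Bulk 2 had the higher level of both Krt75 and this sum. The part of hair-forming cells in the Krt75 result was not tested.

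**Figure D3:**
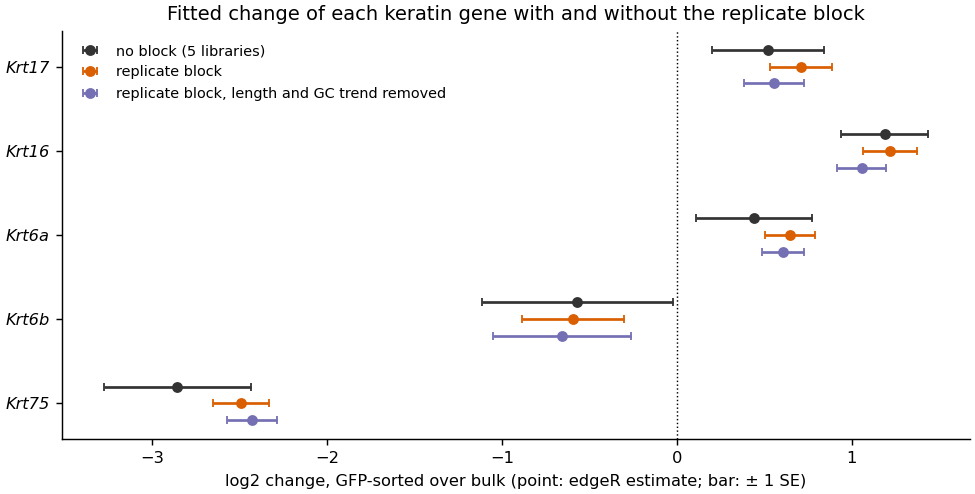
Log2 change of each gene in sorted over bulk cells (horizontal axis; points are edgeR estimates, bars ± 1 SE) without a block, with the replicate block, and with the block after removal of a trend on gene length and GC content. Krt16 stays between 1.06 and 1.22 and Krt75 between -2.86 and -2.43, and the bars of all 5 genes shorten with the block.

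Per kilobase of transcript, the order of levels was the same in the 3 sorted libraries: Krt17, Krt16, Krt6a, Krt75, Krt6b. Krt17 was at 2706, 2191 and 1515 CPM per kb in GFP 1, 2 and 3, and Krt16 at 523, 613 and 549 CPM per kb. Krt6a followed at 59.3, 38.0 and 29.8 CPM per kb and Krt75 at 3.08, 4.23 and 1.67 CPM per kb. No neighbours in this order overlapped in the sorted group. In bulk, Krt6a (38.6 and 23.8 CPM per kb) and Krt75 (14.1 and 29.1 CPM per kb) overlapped, and bulk 2 had more Krt75 than Krt6a. Krt6b was lowest in all 5 libraries. Type I and type II members were thus unequal in level: Krt6a reached 1.56% to 2.66% of Krt17 per kb.

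Ratios inside a library do not depend on scaling between libraries, and they gave a different picture for Krt16. Relative to Krt14, the basal type I gene, Krt16 counts were 5.97% and 7.07% in bulk 1 and 2 and 6.29%, 8.69% and 9.05% in GFP 1, 2 and 3. GFP 1 lay between the bulk libraries, so the groups overlapped on this measure. Krt17 relative to Krt14 was 41.3% and 37.6% in bulk and 32.2%, 30.8% and 24.8% in sorted cells, lower in all sorted libraries. Krt14 itself was at 5452 and 6297 CPM in bulk and at 13024, 11037 and 9491 CPM in sorted cells (edgeR adjusted p = 0.202).

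Krt16 counts were 14.5% and 18.8% of those of Krt17 in bulk 1 and 2 and 19.5%, 28.2% and 36.5% in GFP 1, 2 and 3. All sorted libraries were higher, GFP 1 only slightly. Krt6a relative to Krt5 was 0.977% and 0.522% in bulk and 0.748%, 0.606% and 0.507% in sorted cells, with overlapping groups. Krt75 relative to Krt5 was 0.513% and 0.915% in bulk against 0.0557%, 0.0966% and 0.0408% in sorted cells. The fall of Krt75 was thus seen against another type II gene as well as against the library total. With 3 against 2 libraries an exact permutation test cannot give a p under 0.1, so these ratios carry no test.

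**Figure D4:**
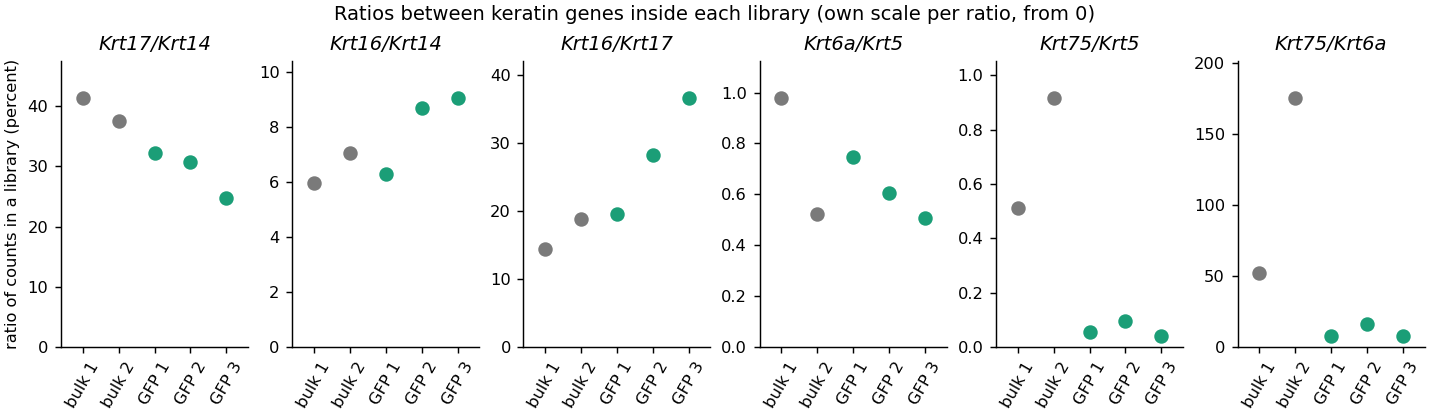
Ratio of counts of 2 keratin genes inside each library, in percent (vertical axis, from 0, own scale per ratio), for bulk (grey) and GFP (green) libraries. Krt75 over Krt5 and over Krt6a is lower in all GFP libraries, Krt17 over Krt14 is lower, Krt16 over Krt17 is higher, and Krt16 over Krt14 and Krt6a over Krt5 overlap.

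Of the counts of all 51 tested keratin genes, Krt17 held 4.10% and 4.34% in bulk and 7.23%, 6.13% and 5.14% in sorted cells. Krt16 held 0.593% and 0.816% in bulk and 1.41%, 1.73% and 1.88% in sorted cells. Both shares were higher in all sorted libraries. Shares of a total also depend on its other members, and the suprabasal keratin genes Krt10 and Krt77 make up much of it. Krt10 had means of 11621 and 5718 CPM (edgeR adjusted p = 0.174) and Krt77 of 9892 and 3200.2 CPM (0.0262).

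Among the other 22 tested epithelial keratins, 3 fell and none rose, where 5.14 percent of all tested genes fell and 0.145 percent rose. At an unadjusted p under 0.05 there were 6 lower and 2 higher. The share of all tested genes at that threshold was not computed, for this list or those below, so such counts have no background. The median log2 change was 0.42 against 0.05 for all tested genes (0.23 without bulk 2 and 0.12 without GFP 1). Krt78, a keratin of differentiated epidermis, fell by 2.97 ± 0.30 on the log2 scale (edgeR adjusted p = 0.00115). Krt23, a type I keratin, fell by 1.84 ± 0.27 and Krt77 fell by 1.63 ± 0.32. Krt23 was not called without bulk 1 (edgeR adjusted p = 0.0511), and Krt77 not without bulk 1, bulk 2, GFP 1 or GFP 2 (0.165, 0.108, 0.102 and 0.0511). For Krt4, a mucosal keratin, the means were 2.42 and 5.13 CPM (edgeR adjusted p = 0.172). With the replicate block 8 of these 22 were called higher and 6 lower, in a fit that called 16.4 percent of all tested genes higher and 19.7 percent lower.

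Keratins of the inner root sheath and the hair shaft lie inward of the companion layer, and nearly all of them fell with Krt75. All 8 tested inner root sheath keratins fell, with a median log2 change of -5.46. Of all tested genes 5.14 percent fell, and their median log2 change was 0.05. Krt25, Krt26, Krt27 and Krt28 had changes of -5.48, -6.20, -6.63 and -4.31 (edgeR adjusted p = 1.64e-04, 1.55e-04, 2.97e-04 and 2.97e-04). Of 14 tested hair shaft keratins 13 fell, with a median of -6.67. Krt81, Krt33a, Krt87 and Krt86 had changes of -9.49, -6.61, -7.90 and -7.43. Krt75 ranked 29 from the highest change among the 51 keratins, and 20 of the 22 keratins below it belonged to these classes, the others being Krt78 and Krt90. Whether its change differs from theirs was not tested.

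**Figure D5:**
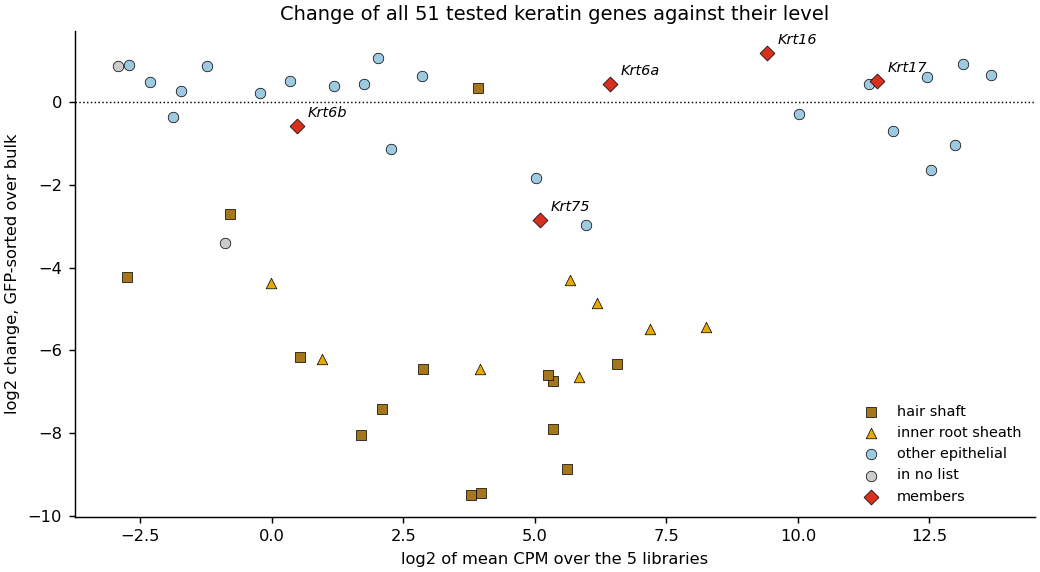
Log2 change in sorted over bulk cells (vertical axis) against log2 of the mean CPM over the 5 libraries (horizontal axis) for the 51 tested keratin genes, by class. Krt16 is the highest point at 1.19. Krt75 at -2.86 has 20 hair shaft and inner root sheath keratins, Krt78 and Krt90 below it.

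In a list of outer root sheath genes no call was made. Of its 16 tested genes edgeR called 0, against 5.28 percent of all tested genes. At an unadjusted p under 0.05 there were 2 higher and 0 lower. The DESeq2 Wald test called 1 higher, beside 188 higher and 1310 lower of all 18583 tested genes. limma-voom called 0, beside 37 higher and 989 lower of all tested genes. The median log2 change of the 16 was 0.44, against 0.05 for all tested genes, and it was 0.14 without GFP 3. The 4 genes with the smallest p were Barx2, a transcription factor gene (means of 148 and 218 CPM, edgeR adjusted p = 0.181), Krt14, Krt15 (4268 and 6537 CPM, 0.389) and Krt5 (9694 and 15250 CPM, 0.415). The means are given with bulk first here and in the lists below. With the replicate block 5 of the 16 were called higher and 1 lower, beside 16.4 and 19.7 percent of all tested genes. With the block and a trend on gene length and GC content removed, 8 were called higher and 1 lower. That fit called 2916 higher and 2694 lower of 18107 tested genes.

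Genes that wounded or inflamed epidermis turns on, the setting in which Krt6, Krt16 and Krt17 proteins are best known, had mostly positive log2 changes but few calls. Of 32 tested genes 25 had a log2 change above 0, with a median of 0.56 against 0.05 for all tested genes. After adjustment 2 rose and 3 fell, where 0.145 percent of all tested genes rose and 5.14 percent fell. At an unadjusted p under 0.05 there were 15 higher and 4 lower, with no share over all genes to set beside them. The urokinase receptor gene Plaur rose from a mean of 10.5 to 29.5 CPM and the EGF receptor ligand gene Epgn from 276 to 873 CPM (edgeR adjusted p = 0.0215 and 0.0231). Mmp9, a gelatinase gene, fell by 4.11 ± 0.54 and Inhba, which encodes an activin subunit, fell by 3.45 ± 0.66 (edgeR adjusted p = 0.00391 and 0.0215). The remaining fall was in Sprr2h, a cornified envelope gene (0.0284). Without bulk 1, bulk 2 or GFP 2 the list had 0 genes called higher, and without GFP 3 it had 4. Inhba was not called without bulk 2 or GFP 2, and Epgn not with a trend on gene length and GC content removed (0.0648). Mmp9 kept its call in every alternative run. With the replicate block 17 of the 32 were called higher and 4 lower, beside 16.4 and 19.7 percent of all tested genes. The DESeq2 Wald test called 9 higher and 4 lower, beside 188 and 1310 of all 18583 tested genes. This list was drawn up with earlier results known, in which Plaur and Epgn were among the strongest rises, and is not independent evidence.

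Targets of Nrf2, the oxidative stress factor that can switch on Krt6, Krt16 and Krt17 genes, gave a single call. Of 12 tested genes 1 fell and none rose, where 5.14 percent of all tested genes fell and 0.145 percent rose. At an unadjusted p under 0.05 there were 3 lower and 2 higher. That gene was G6pdx, which supplies NADPH, with 73.8 and 93.0 CPM in bulk 1 and 2 and 48.6, 44.7 and 40.1 CPM in GFP 1, 2 and 3 (edgeR adjusted p = 0.0325), and it was not called without bulk 1, bulk 2, GFP 1 or GFP 2. Slc7a11, the cystine transporter gene, was at 8.79 and 8.03 CPM in bulk 1 and 2 and at 4.98, 4.37 and 3.85 CPM in GFP 1, 2 and 3 (edgeR adjusted p = 0.0733). Nqo1, a classical Nrf2 target, was at 16.7 and 29.1 CPM (0.263) and Me1, the malic enzyme gene, at 121 and 73.0 CPM (0.275). With the block 5 of the 12 were called higher and 3 lower, beside 16.4 and 19.7 percent of all tested genes.

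None of 20 genes for transcription factors known to act at promoters of stress keratins was called by edgeR, against 5.28 percent of all tested genes. At an unadjusted p under 0.05 there were 5 higher and 1 lower. limma-voom called 0, beside 37 higher and 989 lower of all 18583 tested genes. The DESeq2 Wald test called 1 higher, beside 188 higher and 1310 lower of all tested genes. The smallest p belonged to Nfe2l2, which encodes Nrf2, with means of 116 and 186 CPM (edgeR adjusted p = 0.158). Cebpb was at 272 and 407 CPM (0.231), the AP-1 gene Junb at 2802 and 4544 CPM (0.292), and Gli1, the Hedgehog target, at 18.4 and 10.3 CPM (0.279). With the replicate block 7 were called higher, Nfe2l2, Cebpb and Junb among them, and 2 lower, Gli1 among them. That fit called 16.4 percent of all tested genes higher and 19.7 percent lower.

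The members did not follow a single pattern over the 5 libraries. Likeness was measured as the root mean square difference of log2 CPM profiles, each centred on its own mean. Krt6a and Krt17 were the closest pair of members at 0.27, both being highest in GFP 1, and Krt16 and Krt75 the most distant at 2.04. Krt6a and Krt6b, despite their shared sequence, were 0.82 apart. Candidates were 8874 other named genes whose log2 CPM averaged 3 or more. Of these, the closest to Krt16 were Pxdc1 (0.15), Pmp22 (0.15), a myelin and growth arrest protein gene, and Ch25h (0.16), which makes an oxysterol. All 3 were called higher in the fit without a block (edgeR adjusted p = 0.0219, 0.0370 and 0.0313). These genes were picked for a profile like that of Krt16 over the same libraries, so such calls add no support. All 3 lost the call without bulk 1, bulk 2 or GFP 2, and Pxdc1 also without GFP 1 (0.0503). Pmp22 and Ch25h lost it too with scaling by library size alone (0.0650 and 0.0591) and after removal of a trend on gene length and GC content (0.0645 and 0.0596).

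Closest to Krt75 were Nrp2 (0.31), a semaphorin and VEGF co-receptor gene, Cnn3 (0.43), which encodes an actin-binding calponin, and Dlx3 (0.47), a homeobox gene of hair and epidermal differentiation. Nrp2 was at 19.9 and 37.8 CPM in bulk 1 and 2 and at 4.79, 5.79 and 3.96 CPM in GFP 1, 2 and 3, and like Krt75 it was higher in bulk 2 than in bulk 1. Krt6a lay closest to Sem1 (0.054), Cnpy2 and Mrps21, and Krt17 to Idh3g (0.034), Nop53 and Pecr. None of these was called without a block. Krt6b lay closest to Lgals1 (0.39), Acot7 (0.43) and Golga7b (0.44), at larger distances. With 5 libraries these are descriptions and carry no test.

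The genes that flank the members in the M21 annotation had their own patterns. Krt42, beside Krt17, was at 0.483 to 1.27 CPM in the 5 libraries with overlapping groups (edgeR adjusted p = 0.861). Krt90, beside Krt75, was at 0.803 and 1.56 CPM in bulk 1 and 2 and at 0.0887, 0.166 and 0.0857 CPM in GFP 1, 2 and 3, which is -3.39 ± 0.52 on the log2 scale (edgeR adjusted p = 0.00830). As with Krt75, bulk 2 was the highest library. Krt5, beside Krt6a, and Krt14, which lies on the side of Krt16 away from Krt17, were higher in all sorted libraries but not called.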

How the data were processed

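The authors deposited 1 table of whole-number counts per versioned Ensembl gene ID, with no normalization, and each column was tied to its library by the labels. The submitters' processing notes name STAR and GRCm39. No source used here names the counting tool, the strand setting or the handling of shared reads. Symbols came from GENCODE M21, matching 52073 of 56691 IDs. Because builds differ, no coordinates are given. RefSeq promoter sequences were not used, and the entries for Krt6a, Krt6b, Krt16 and Krt17 were not matched.

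Counts were tested with edgeR 4.0.16 in R 4.3.3 (filterByExpr with a minimum count of 10 and minimum total of 15, TMM, quasi-likelihood test, two-sided, Benjamini-Hochberg over 18583 genes, 3 residual degrees of freedom). Alternatives used DESeq2 1.42.0, limma 3.58.1, other scalings and filters, a replicate block, a loess trend (span 0.3) on length and GC content, summed Krt6 copies, and each library left out. The block takes the title number as the animal, although no label says so. It has 1 residual degree of freedom and its p-values lean on the spread shared across genes. Across genes, the difference of bulk 1 and 2 correlated with that of GFP 1 and 2 (Pearson r = 0.474).

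The members, lists and tests were chosen with earlier results of these data known. Named genes are all members, up to 4 genes of each list with the smallest p, the 3 genes most like each member, and flanking genes. Exceptions chosen after their values were seen are Krt10, Krt32, Sprr2h, the single genes named from cell type marker lists, and the genes that share sequence with the members, such as Gm5478. Coding sequences were aligned globally with Biopython 1.88. Of the listed genes, Krt85 was not matched.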

Additional observations from a re-analysis of the deposited data

How the results depend on the processing

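The count of 2 called members held in 9 of the 11 alternatives that keep all libraries. It was 4 with the replicate block, and 4 when a trend on length and GC content was removed as well. It was 1 to 2 with 1 library left out, Krt75 being called each time and Krt16 only without GFP replicate 3. Fits without a bulk library leave 1 bulk library, which is assumed to vary like the sorted ones. The signs of all 5 log2 changes held in every alternative run on them. Krt6a ranged from 0.12 to 0.84, Krt6b from -1.20 to -0.14 and Krt17 from 0.32 to 0.71. Of the list genes 30 were called, 22 to 33 with 1 library left out, 49 with no filter on low counts, 76 with the replicate block and 73 with the block and the trend removed. Over all genes 27 were called higher and 955 lower, against 3040 and 3652 with the block, 2916 and 2694 with the block and the trend removed, 258 and 1660 with no filter, 188 and 1310 with the DESeq2 Wald test, 7 and 516 without bulk replicate 1, and 1 and 479 without bulk replicate 2. The cause of these shifts was not tested, beyond the fewer libraries of the last fits. Scaling by library size alone moved the median log2 change of all genes from 0.05 to -0.07, and Krt16 was then at 1.07 (edgeR adjusted p = 0.0403). Depth limits Krt6b, with 37 to 243 counts.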

Other observations

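Besides Gm5478, Krt14 and Krt5, less abundant genes also share sequence with the members or overlap them. The pseudogene Gm11597, which shares windows with Krt16, had 2 to 17 counts per library, against 19457 to 80164 for Krt16. The antisense gene Gm49428 over Krt6a had 13 and 39 counts in bulk 1 and 2 and 59, 9 and 165 counts in GFP 1, 2 and 3. It was thus lowest in GFP 2, the library that also had the fewest counts of Gm5478 and Krt6b. Gm5414, another Krt6-like gene, had 0 to 2 counts per library.

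The markers of the upper hair follicle, where Lrig1 is known to be expressed, summed to 3878 and 4060 CPM over 6 genes in bulk 1 and 2 and to 7000, 5963 and 4451 CPM in GFP 1, 2 and 3. Of these 6 genes edgeR called 0 in the fit without a block, against 5.28 percent of all tested genes. With the replicate block it called all 6 higher, where 16.4 percent of all tested genes were called higher. The single genes differed in order. Krt79, Cst6 and Defb6 were highest in GFP 1 among the sorted libraries, as were Krt17 and Krt6a. Plet1, Lrig1 and Gata6 were highest in GFP 2, as was Krt16.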
